A study of Mus musculus with 6 samples.

Results

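Gja1 encodes Cx43, the connexin best known as a membrane protein of gap junctions. Here 6 probe sets of a mouse Affymetrix expression array were taken to report Gja1 messenger RNA, an assignment that was not checked. These 6 were chosen by their identifiers out of 45037 probe sets that are not manufacturer's controls, and they had been picked with the contrast between genotypes in view: their levels in miR-223 null and wild-type neutrophils are therefore described here and not tested. The samples were miR-223 null neutrophils (3 arrays) and wild-type neutrophils (3 arrays), both matured in culture from mouse bone marrow progenitors. Per the labels, both groups received granulocyte colony-stimulating factor and stem cell factor during 6 days in SILAC medium, which serves to label proteins with isotopes, followed by 42 hours without stem cell factor, and live cells were then purified with magnetic beads. The labels give no strain, age or sex, do not say how miR-223 was deleted, and do not name the mouse or culture behind each replicate.

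Connexins assemble into channels in the plasma membrane. Channels of adjoining cells dock to form gap junctions, through which ions and small metabolites pass, and undocked hemichannels can release ATP to the outside. Cx43 is the most widely expressed member of the family and is abundant in bone marrow stroma and osteoblasts, where it takes part in the support of blood-forming cells, and connexin hemichannels have been studied as a route of ATP release from activated neutrophils. miR-223 is a microRNA abundant in the granulocyte lineage, and a microRNA represses messenger RNAs that pair with it, mainly through its seed.

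The mature sequences of the deleted microRNA are shown because they define the genotype, with the seed, bases 2 to 8, in capitals (RefSeq, GRCm38.p6, 5′ to 3′). They lie on the plus strand of chromosome X, miR-223-5p at chrX:96242842-96242864 and miR-223-3p at chrX:96242884-96242905.
mmu-miR-223-3p: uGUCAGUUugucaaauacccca
mmu-miR-223-5p: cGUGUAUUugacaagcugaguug
No transcript sequence of Gja1 was searched for matches to these seeds. The 250 bases before the start of Gja1 are shown as the stretch just upstream of its annotated transcript (RefSeq, GRCm38.p6, chr10:56377050-56377299, plus strand), with a match to the AP-1 motif in capitals. AP-1 is the dimer of Jun and Fos proteins.
Gja1 promoter: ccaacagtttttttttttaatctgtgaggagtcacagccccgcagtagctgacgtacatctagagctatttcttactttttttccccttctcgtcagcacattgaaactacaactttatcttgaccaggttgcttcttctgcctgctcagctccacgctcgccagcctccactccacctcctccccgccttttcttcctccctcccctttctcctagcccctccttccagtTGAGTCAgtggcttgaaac
The AP-1 motif, searched as TGANTCA, reads the same on both strands and had 1 match, which starts 19 bases before the gene's start. The same letters occurred in the corresponding 250 bases of 6.75% of 32851 mouse promoters. The GC box GGGCGG, present in 32.7% of promoters, the T-box motif GGTGTGA, present in 3.33%, and the cyclic AMP response element TGACGTCA, present in 1.55%, had no match in this window on either strand, and none of the 4 motifs overlapped another there. A match describes the letters only.

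The values are log2 intensities, so a difference of 1 unit is a 2-fold difference in signal. Array medians lay between 4.71 and 4.73. The table carries no detection calls, and the 3 probe sets for bacterial trp sequences, which have no counterpart in mouse RNA, served as a low-signal mark with array means from 2.77 to 2.86. The replicate 1 arrays of both genotypes deviated together from the other arrays. Their deviations from the group means, over the 27022 probe sets with enough signal to be kept in the fit, correlated at r = 0.70, so each Gja1 value is also given within its replicate number.

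Averaged over the 6 probe sets, Gja1 signal was lower in miR-223 null neutrophils, at 52.0% of its wild-type signal. The mean was 3.91, 3.74 and 3.78 on the null arrays of replicates 1, 2 and 3. It was 4.76, 4.83 and 4.67 on the wild-type arrays. The groups did not overlap, and 0.76 log2 units separated the highest null array, that of replicate 1, from the lowest wild-type array, that of replicate 3. The group means were 3.81 ± 0.09 for null against 4.75 ± 0.08 for wild-type arrays (SD, n = 3 each), a difference of -0.94 log2 units (SE 0.07). Taken within a replicate number, it was -0.85 in replicate 1, -1.09 in replicate 2 and -0.89 log2 units in replicate 3. The Gja1 mean did not follow the shared replicate deviation seen over all kept probe sets. From its group mean it deviated by 0.10, -0.07 and -0.03 on null arrays 1, 2 and 3. On wild-type arrays it deviated by 0.01, 0.08 and -0.08, with opposite signs in replicate 2. In samples of many cells, fewer cells that carry Gja1 RNA and less Gja1 RNA per cell cannot be told apart.

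**Figure D1:**
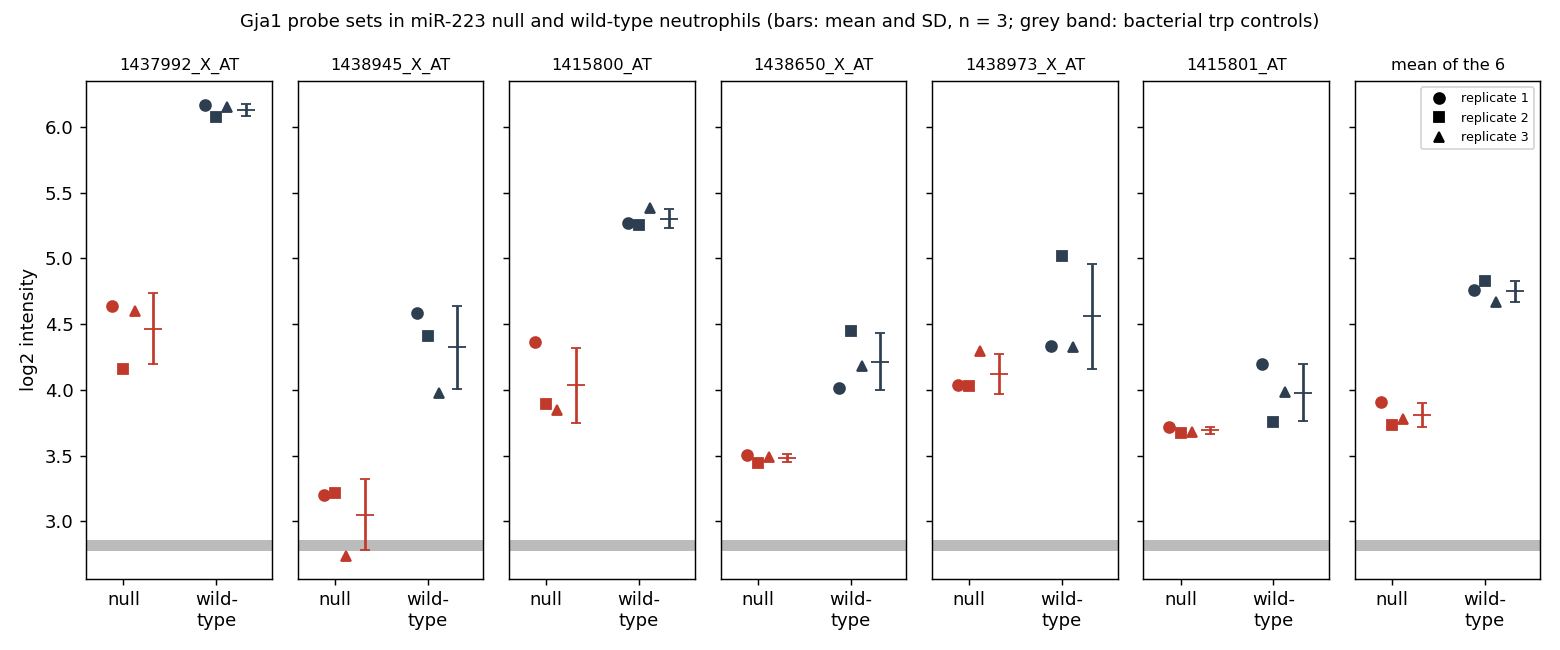
Log2 intensity of each Gja1 probe set and of their mean, with null arrays on the left and wild-type arrays on the right of each panel; symbols give the replicate number, bars the mean and SD of 3 arrays, and the grey band the range of array means of the bacterial trp controls. In every panel the 3 null arrays lie below the 3 wild-type arrays, and the distance between them is greatest for 1437992_X_AT and smallest for 1438973_X_AT and 1415801_AT.

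All 6 probe sets had the same direction, but the size differed by probe set from -0.29 to -1.66 log2 units. Each had its 3 null arrays below its 3 wild-type arrays, where 6.96% of all 45037 probe sets did so. Within replicate numbers, 18 of 18 differences were negative, which follows from that lack of overlap and adds nothing to it. For comparison, 19.5% of all probe sets were lower in null arrays in 3 of 3 replicate numbers. The probe sets were chosen for this contrast and were taken to measure 1 gene in the same 6 RNA samples. These counts therefore describe agreement among probe sets and are not 6 independent observations.

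Probe set 1437992_X_AT had the largest difference of the 6. It read 4.64, 4.16 and 4.60 on null arrays, against 6.16, 6.08 and 6.15 on wild-type arrays. The wild-type arrays differed by less than 0.09 log2 units among themselves, while null 2 lay apart below the other null arrays, and 1.44 units separated the groups. The means were 4.47 ± 0.27 for null against 6.13 ± 0.05 for wild-type arrays (SD, n = 3 each), a difference of -1.66 (SE 0.16), or a signal in null cells at 31.5% of wild-type. On the linear scale this was 22.3 ± 3.9 intensity units for null against 70.0 ± 2.2 for wild-type arrays (SD, n = 3 each). Of the 45037 probe sets, 5 had a more negative difference, where the other Gja1 probe sets had from 20 (1438945_X_AT) to 2057 (1415801_AT). The choice rested on these differences, so nothing is inferred from the ranks. Within replicates 1, 2 and 3 the difference of 1437992_X_AT was -1.53, -1.92 and -1.54 log2 units.

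Probe set 1415800_AT, whose identifier lacks the x that marks probes shared with other transcripts, also separated the genotypes clearly. It read 4.36, 3.89 and 3.85 on null arrays, against 5.26, 5.25 and 5.38 on wild-type arrays. Null 1 was the highest null array and the groups stood 0.89 units apart. The means were 4.03 ± 0.28 for null against 5.30 ± 0.07 for wild-type arrays (SD, n = 3 each), a difference of -1.27 (SE 0.17), or 41.6% of wild-type signal. Within replicates 1, 2 and 3 it was -0.90, -1.36 and -1.54 log2 units, smallest in replicate 1.

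Probe set 1438945_X_AT separated the genotypes too, but its null signal lay only 0.25 log2 units above the trp controls on average, so the size of its difference is uncertain. It read 3.20, 3.21 and 2.74 on null arrays, against 4.58, 4.41 and 3.97 on wild-type arrays. Replicate 3 was the lowest array in both genotypes, and null 3 lay 0.11 log2 units below the mean of the bacterial trp controls of that array. The means were 3.05 ± 0.27 for null against 4.32 ± 0.31 for wild-type arrays (SD, n = 3 each), a difference of -1.27 (SE 0.24). Despite that spread, the differences within replicates 1, 2 and 3 were alike at -1.39, -1.19 and -1.24 log2 units.

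The difference was of middle size for 1438650_X_AT. It read 3.50, 3.45 and 3.49 on null arrays, against 4.01, 4.45 and 4.18 on wild-type arrays. The null arrays lay close together, the wild-type arrays were more spread, and 0.51 units separated the groups. The means were 3.48 ± 0.03 for null against 4.21 ± 0.22 for wild-type arrays (SD, n = 3 each), a difference of -0.73 (SE 0.13). Within replicates 1, 2 and 3 it was -0.510, -0.999 and -0.692 log2 units.

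The genotypes were barely separated at 1438973_X_AT and 1415801_AT. Probe set 1438973_X_AT read 4.03, 4.03 and 4.30 on null arrays, against 4.34, 5.02 and 4.32 on wild-type arrays, so that wild-type 2 stood well above the other 5 arrays. Its difference of -0.44 (SE 0.25) rested largely on replicate 2: it was -0.30, -0.99 and -0.03 log2 units within replicates 1, 2 and 3, -0.21 without wild-type 2, and -0.16 with replicate 2 left out in both genotypes. Probe set 1415801_AT read 3.72, 3.67 and 3.68 on null arrays, against 4.19, 3.76 and 3.99 on wild-type arrays. Its null arrays lay within 0.05 units of each other and its wild-type arrays did not, and the difference of -0.29 (SE 0.13) was -0.47, -0.08 and -0.30 within replicates 1, 2 and 3, and -0.18 without wild-type 1. The gap between the highest null and the lowest wild-type array was 0.03 units for 1438973_X_AT and 0.04 units for 1415801_AT, less than the SD of either probe set's wild-type arrays (0.40 and 0.22).

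**Figure D2:**
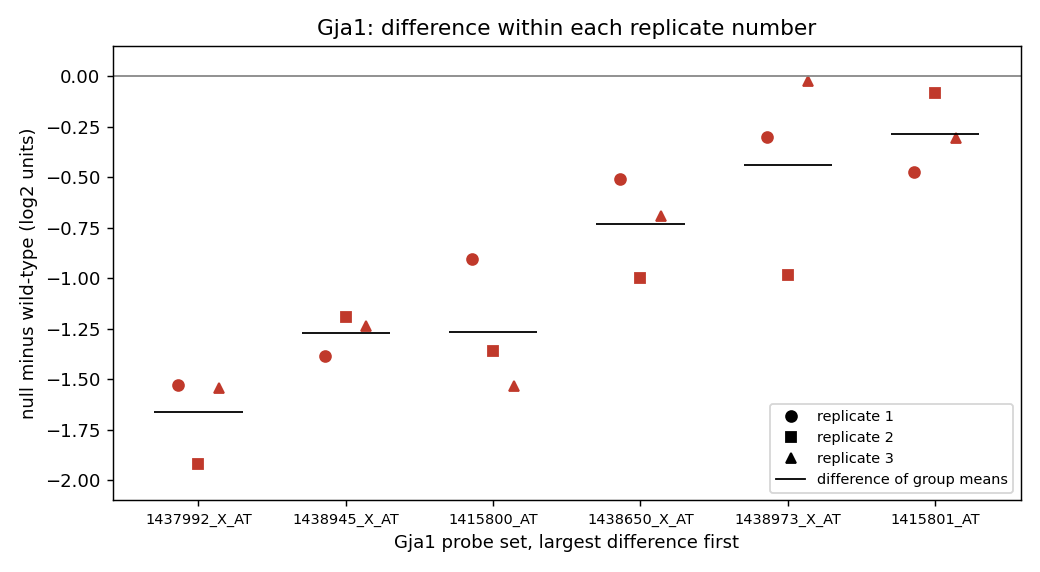
Null minus wild-type difference in log2 units for each Gja1 probe set within replicates 1, 2 and 3 (symbols), with the difference of the group means as a line; probe sets are ordered by the difference of the group means. All 18 values are below 0, from -1.92 (1437992_X_AT, replicate 2) to -0.03 (1438973_X_AT, replicate 3), and no replicate number gives the largest difference at every probe set.

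No array was the extreme one at every probe set. Null 1 was the highest null array at 4 of the 6 probe sets, and null 2 the lowest null array at 4. Among wild-type arrays, wild-type 1 was the highest at 3 probe sets and wild-type 2 the lowest at 3. The mean over probe sets was steadier than most single ones, with an SD within genotype of 0.09 in null and 0.08 in wild-type arrays, against 0.03 to 0.28 and 0.05 to 0.40 for single probe sets.

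The probe sets shared the difference between genotypes and little of the variation within a genotype. Across all 6 arrays the 15 pairs of probe sets correlated at r = 0.09 to 0.97, with a median of 0.77. After each group's mean was removed, the median was 0.01, and 8 of 15 pairs were positive. Probe sets 1438650_X_AT and 1438973_X_AT varied together within genotype (r = 0.86), and both ran opposite to 1415801_AT (r = -0.97 and -0.82). The SD of 1438650_X_AT and of 1415801_AT was 0.03 in null against 0.22 in wild-type arrays. The within-genotype r of these pairs therefore rests mostly on the 3 wild-type arrays. All these correlations use 6 arrays of the same RNA samples and are given as a description.

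Gja1 signal was low in null cells and low to middling in wild-type cells. In null arrays the probe sets' means lay 0.25 to 1.66 log2 units above the bacterial trp controls, and in wild-type arrays 1.17 to 3.33 units above them. Set among all 45037 probe sets, all 6 ranked below the median signal in null arrays, between the 14.7th and the 46.4th percentile. In wild-type arrays 4 ranked below the median and 2 above it, 1415800_AT at the 57.1st and 1437992_X_AT at the 64.8th percentile.

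How far the size of a difference depends on background was looked at by subtracting each array's trp control signal on the linear scale, an alternative chosen after seeing the data. Such a subtraction enlarges every log2 difference by construction, so only its extent is informative. For 1437992_X_AT the difference became -2.07, for 1415800_AT -1.81, for 1438650_X_AT -1.45, for 1438973_X_AT -0.65 and for 1415801_AT -0.55 log2 units. Probe set 1438945_X_AT has no value there because null 3 lay below the controls. The mean over these 5 was -1.31 log2 units after subtraction, against -0.88 for the same 5 as deposited. Which transcripts besides Gja1 the x probe sets could detect was not analysed here. The 4 x probe sets differed by -1.03 log2 units on average and the 2 without x by -0.78.

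Against all other probe sets of like signal, 4 Gja1 probe sets lay below the 1st percentile of differences and 2 between the 1st and the 5th. Among the 11517 probe sets with a mean signal in the range of the Gja1 probe sets (3.69 to 5.30), the median difference was 0.01 and the 5th and 95th percentiles were -0.27 and 0.25 log2 units. In that range 5.24% of probe sets had all null arrays below all wild-type arrays. The values for Gja1 are those the choice rested on, and nothing is inferred from their place.

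**Figure D3:**
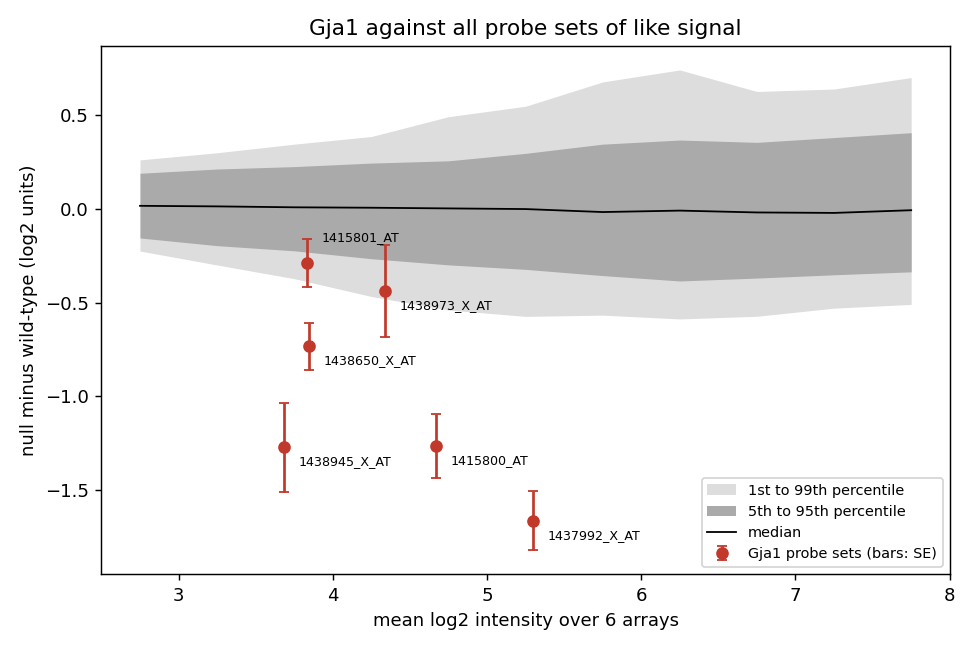
Null minus wild-type difference in log2 units against mean log2 intensity over 6 arrays: grey bands give the spread of all probe sets in steps of 0.5 intensity units and points the Gja1 probe sets with the SE of the difference (n = 3 arrays per genotype). Probe sets 1437992_X_AT, 1438945_X_AT, 1415800_AT and 1438650_X_AT lie below the band, 1438973_X_AT and 1415801_AT within it near its lower edge.

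Only 3 of the 6 Gja1 probe sets, 1437992_X_AT, 1415800_AT and 1438973_X_AT, had a mean over all arrays high enough to enter the fit across all probe sets (limma, Benjamini-Hochberg adjusted p under 0.05). That fit called 0.189% of 27022 probe sets in either direction, and 10% once replicate number entered as a block. What it returned for the Gja1 probe sets is not given, since they were chosen on the contrast it tests.

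The 8 probe sets nearest to Gja1 in profile had differences of -0.98 to -0.74 log2 units. As they were chosen by likeness to that profile, differences near that of Gja1 and a high r follow from the choice. Likeness was measured as the root mean square distance between the values of a probe set on the 6 arrays, centred on their mean, and the mean centred profile of the 6 Gja1 probe sets. Of 27019 other probe sets, 1425400_A_AT was nearest, at 0.11 log2 units, with r = 0.98 over 6 arrays. It read 4.43, 4.42 and 4.57 on null arrays, against 5.24, 5.51 and 5.32 on wild-type arrays. Next was 1430466_AT, also at 0.11 log2 units, which read 3.76, 3.56 and 3.84 on null arrays, against 4.65, 4.67 and 4.78 on wild-type arrays. The files used here do not pair either with a gene. Both lay nearer to the mean Gja1 profile than any single Gja1 probe set did, as those lay 0.16 (1438650_X_AT) to 0.39 units (1437992_X_AT) from it. Both had been picked as the nearest of 27019, so nothing is inferred from that. Among the 27019, 393 had a difference at least 0.5 times that of Gja1 and in the same direction, and 38 a more negative one than the Gja1 mean.

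Control transcripts gave the following values beside the Gja1 difference. The bacterial trp controls averaged 2.80 ± 0.04 for null against 2.80 ± 0.05 for wild-type arrays (SD, n = 3 each). Beta-actin, a cytoskeletal protein, differed by -0.02 log2 units and Gapdh, a glycolytic enzyme, by -0.04, each as a mean of 3 control probe sets. Their null means of 14.46 and 13.99 lay near the array maxima of 14.98 to 14.99 and far above Gja1. They do not show how probe sets of low signal compare between genotypes. The 3′ minus 5′ difference of beta-actin, which rises as RNA is degraded, was 0.22 ± 0.05 for null against 0.20 ± 0.05 for wild-type arrays (SD, n = 3 each). For Gapdh it was -0.02 ± 0.09 for null against -0.07 ± 0.02 for wild-type arrays (SD, n = 3 each). For the transferrin receptor it was 1.45 ± 0.14 for null against 1.31 ± 0.21 for wild-type arrays (SD, n = 3 each). The transferrin receptor, an iron importer prominent in erythroid and dividing cells, was lower in null arrays within 3 of 3 replicate numbers, as were 19.5% of all probe sets. The mean of its 3 control probe sets read 7.65, 7.56 and 6.83 on null arrays, against 7.95, 8.08 and 7.68 on wild-type arrays, a difference of -0.55 log2 units. It differed by -0.30 in replicate 1, -0.52 in replicate 2 and -0.85 in replicate 3, where the Gja1 mean differed by -0.85, -1.09 and -0.89. With the block its 3 probe sets were called lower (limma adjusted p = 0.0307, 0.0323 and 0.0135), and without it they were not (limma adjusted p = 0.428, 0.456 and 0.472). In the fit that left controls out, the block called 10% of 27022 probe sets in either direction. The 3 probe sets measure 1 transcript in the same RNA samples and are not independent. The spiked poly-A controls, bacterial transcripts added to the RNA, ran the other way: the mean of their 24 probe sets was 8.92, 8.34 and 8.58 on null arrays, against 8.77, 8.36 and 8.16 on wild-type arrays. That is 0.18 log2 units higher in null arrays, by 0.15 in replicate 1 and 0.42 in replicate 3 but -0.03 in replicate 2, with overlapping groups, and none of these probe sets was called with or without the block. The part of the transferrin receptor or the spiked controls in the Gja1 result was not tested. Markers of neutrophils, stroma, endothelium, macrophages and other cells that could carry Gja1 RNA were not analysed here, since the probe sets could not be paired with genes, and for the same reason the level of miR-223 and of other connexins was not analysed.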

How the data were processed

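Messenger RNA of cultured mouse neutrophils was measured on 6 Affymetrix arrays. The deposited table holds log2 values for 45101 probe sets, a scale read from their range; the submitters' processing notes name GCOS, and background correction, normalization and probe summary are not given in the sources used here. Values were used as deposited. No file or reference table pairs probe sets with genes, so the assignment of the 6 probe sets to Gja1 was taken as given to this work and not checked, and the lists of connexins, partners and cell markers drawn up for this report were not tested. Genes nearest to Gja1 in profile were to be named by a rule of 8, of which 2 are given by identifier. The members, lists and tests were chosen with earlier results of these data known.

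The 64 control probe sets were set aside, and of the other 45037 only those whose mean reached the 40th percentile (4.08) entered. Null minus wild-type was fitted with limma 3.58.1 in R 4.3.3 (lmFit, eBayes with intensity trend; two-sided, Benjamini-Hochberg adjusted p under 0.05), tested on simulated data first. The simulated arrays had independent noise and no shared replicate effect, so the simulation cannot show how the fit behaves with such an effect. P-values rest on the spread among these arrays alone, possibly a technical one; 3 arrays per group limit the precision. The main fit did not pair arrays, and each SE given treats the groups as independent, without pairing. Arrays were paired by replicate number only for the block and the differences within replicate numbers, because the labels share those numbers. Deviations of same-numbered arrays correlated at r = 0.70, 0.30 and 0.48 for replicates 1, 2 and 3. The labels do not state what same-numbered arrays share, and null 3 with wild-type 2 also reached r = 0.41. Alternatives were the replicate block, other filters, quantile normalization, median centring, no trend, left-out arrays and other summaries of the 6 probe sets. Sequences are from RefSeq tables (GRCm38.p6).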

Additional observations from a re-analysis of the deposited data

How the results depend on the processing

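The mean Gja1 difference of -0.94 log2 units was negative under all 17 alternatives, from -1.31 to -0.67. Leaving out arrays or replicate numbers gave -0.99 to -0.87. The sign could not change there, as every null array lay below every wild-type array. Nor could it change in a mean over fewer of the 6 probe sets, each of which was lower in null arrays. It moved by more than the spread between arrays (0.09) with each array's median over probe sets in place of its mean (-0.67, while the median of the 6 probe sets' own differences was -0.9999), with probe sets without the x only (-0.78), with probe sets past the filter only (-1.12), with the mean of linear signal (-1.09) and with trp control signal subtracted, which leaves 5 probe sets (-1.31, against -0.88 for the same 5 as deposited). These alternatives use other probe sets, weights or a subtraction by construction. The filter also depends on the contrast. Probe set 1415800_AT, with a null mean of 4.03, passed the cutoff of 4.08 only through its wild-type mean of 5.30. None of 66 alternatives for single Gja1 probe sets changed sign. Where arrays were left out this was fixed beforehand, as each probe set had all null arrays below all wild-type arrays. The smallest differences were -0.16 for 1438973_X_AT without replicate 2 and -0.18 for 1415801_AT without wild-type 1. Over all probe sets, the fit called 51, the replicate block 2703 and, with no filter, 2455, and at an adjusted p under 0.01 it called 2. Leaving out 1 array or replicate number gave 0 to 1072 limma calls. It gave 0 without null 2 (2064 at an unadjusted p under 0.05), without wild-type 2 (1753), without replicate 2 (971) and without replicate 3 (1302), 1 without wild-type 3, 3 without null 3 and 1072 without replicate 1; the cause was not tested. Of the 8 nearest profiles, 1 was among the 8 found by Pearson correlation. That search covered only the 393 probe sets with a difference at least 0.5 times that of Gja1 in the same direction. The tests of gene lists were not run. Signal over background limits most what 1438945_X_AT can show, whose null mean lay 0.25 log2 units above the trp controls, and least 1437992_X_AT, at 1.66.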
